A study of Mus musculus with 36 samples.

Results

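The Bcl6 and Lpp locus of mouse chromosome 16 was examined in 3 maps of replication timing (RT), the order in which parts of the genome are copied during S phase. It was described through 4 neighbouring protein-coding genes, Sst, Rtp2, Bcl6 and Lpp, out of 22350 in the annotation, together with 2 Mb on either side. The 4 genes were chosen by their RT states, which were late in one B cell map and early in the other, so those states are given below as a description and no test was made on them. The maps came from Repli-seq, in which BrdU marks newly made DNA and cells from the first and last parts of S phase are sequenced separately.

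The series held 36 libraries in 7 groups, and 2 of these groups gave the B cell maps used here. The first was the CH12 line, a mouse B cell lymphoma line, infected with lentivirus carrying shLacZ, a control hairpin against a bacterial gene, and selected with puromycin. CH12 cells were a single clone of the line, carried intact Rif1, and gave 4 libraries, 2 of early and 2 of late S phase. The second was WT primary B cells, splenic B cells of mice with intact Rif1 that had been activated in culture, with the same numbers of libraries; the age of the mice was not given in the sources used here. The labels described the same stimulation for both, with IL4, an antibody to CD40 and TGF beta. The line and the primary cells also differed in being transformed, infected and selected, and these differences cannot be told apart. The third map carried the name of mouse embryonic fibroblasts (MEFs), belonged to no labelled sample, and was set beside the other maps for comparison.

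Each 20 kb bin carried 1 of 3 states, early (E), middle (M) or late (L). Each condition had 1 map, called from merged replicates, and no value below therefore has a replicate error. The read depth behind the states is unknown, as the maps hold neither read counts nor RT values. The identity of the cells could not be checked against marker genes, since no expression was measured here.

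Replication starts at many origins, and active, GC-rich and gene-dense chromatin is generally copied before compact, gene-poor chromatin. The timing of a developmental locus can shift between cell types, often across whole domains at once. Bcl6 encodes a transcriptional repressor with a BTB domain and zinc fingers that is required for germinal centre B cells, and its human counterpart is a frequent target of translocation in B cell lymphoma, with LPP among its known partners. Lpp encodes a LIM domain protein of the zyxin family found at focal adhesions. Sst encodes somatostatin, a peptide that inhibits hormone secretion, and Rtp2 encodes a protein that helps odorant receptors to reach the cell surface.

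The 4 genes differed widely in size, and all positions given here are in the mm9 assembly. Sst (ENSMUSG00000004366.3) spanned 1264 bp of the minus strand, from 23889667 to 23890930, in 2 exons. Rtp2 (ENSMUSG00000047531.8) spanned 5.24 kb of the minus strand, from 23925634 to 23930873, also in 2 exons. Bcl6 (ENSMUSG00000022508.5) spanned 23.8 kb of the minus strand, from 23965138 to 23988938, in 10 exons. Lpp (ENSMUSG00000033306.8) ran the other way, on the plus strand from 24393436 to 24992662, and its 599 kb held 13 exons and an intron of 103 kb. By length Lpp ranked 138 of 22350 protein-coding genes, against rank 8694 for Bcl6, 16342 for Rtp2 and 19817 for Sst. Sst and Rtp2 lay 34.7 kb apart, and Rtp2 and Bcl6 34.3 kb apart. The starts of Bcl6 and Lpp faced away from each other across 404 kb that held 0 other protein-coding genes.

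The sequences just before the starts are shown because the 4 genes shared their states in all 3 maps, and they let these starts be compared directly. Each line gives the 250 bases before the gene start, 5′ to 3′ on the gene's own strand, read from the mm9 reference. Capitals mark TGACGTCA, the cAMP response element, and CACGTG, an E-box, both of which read the same on either strand.
Sst: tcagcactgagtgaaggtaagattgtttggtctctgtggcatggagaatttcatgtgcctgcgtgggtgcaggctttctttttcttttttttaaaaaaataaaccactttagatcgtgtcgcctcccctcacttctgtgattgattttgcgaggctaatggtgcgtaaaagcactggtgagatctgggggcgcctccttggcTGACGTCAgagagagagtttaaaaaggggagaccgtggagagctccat
Rtp2: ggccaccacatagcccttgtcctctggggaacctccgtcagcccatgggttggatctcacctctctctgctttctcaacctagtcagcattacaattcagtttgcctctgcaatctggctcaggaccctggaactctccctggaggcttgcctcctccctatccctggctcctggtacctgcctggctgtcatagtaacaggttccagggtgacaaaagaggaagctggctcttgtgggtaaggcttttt
Bcl6: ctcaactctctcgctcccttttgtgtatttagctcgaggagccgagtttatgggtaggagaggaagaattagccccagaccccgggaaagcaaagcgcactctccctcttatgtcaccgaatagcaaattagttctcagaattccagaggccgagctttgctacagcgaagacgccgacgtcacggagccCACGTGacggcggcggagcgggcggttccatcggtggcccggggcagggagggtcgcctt
Lpp: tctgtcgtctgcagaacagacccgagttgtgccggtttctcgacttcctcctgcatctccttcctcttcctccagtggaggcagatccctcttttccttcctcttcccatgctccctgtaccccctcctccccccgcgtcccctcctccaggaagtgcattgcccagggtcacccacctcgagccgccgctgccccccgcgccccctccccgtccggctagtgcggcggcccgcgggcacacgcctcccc
These windows lay on chromosome 16 at 23890931 to 23891180 for Sst, 23930874 to 23931123 for Rtp2, 23988939 to 23989188 for Bcl6 and 24393186 to 24393435 for Lpp.

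The 4 starts were unlike each other in base composition. The window before Bcl6 held 21 CG dinucleotides, and its observed over expected CpG ratio of 0.987 was higher than in 92.3% of 22345 such windows. Before Lpp the GC content was highest of the 4, at 67.6%, with 18 CG and a CpG ratio of 0.740, above 70.9% of windows. Sst had the lowest GC content, 47.2%, and a CpG ratio of 0.599 from 8 CG. Rtp2 held 1 CG and a CpG ratio of 0.0543, above only 7.82% of windows. Across all windows the medians were 54.0% GC and a CpG ratio of 0.496. Genes with a CpG-rich and a CpG-poor start thus lay in the same domain.

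The motifs were few. Sst held TGACGTCA, whose first base lay 48 bases before the start (position -48), a sequence present in 1.92% of all windows and known as the element through which cAMP acts on this gene. Bcl6 held CACGTG from position -60, present in 6.52% of windows. The letters TTCCTAGAA, a core of the element that BCL6 protein binds, and TATAAA were in none of the 4 windows on either strand, and in 0.331% and 12.3% of all windows.

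In shLacZ CH12 cells all 4 genes lay in 1 late domain. It ran from 23720001 to 25200000, 1480 kb, and covered 100% of each gene body. The Bcl6 start was 269 kb inside its lower limit and the Lpp start 673 kb, while Sst was the nearest to it, at 171 kb. The closest E domain of this map ended 509 kb below the Bcl6 start, and the next above it began 3211 kb away.

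In WT primary B cells the same 4 genes lay in 1 early domain. It ran from 23820001 to 25280000, 1460 kb, and again covered 100% of each gene body. Its lower limit was 169 kb from the Bcl6 start, 70.9 kb from that of Sst and 111 kb from that of Rtp2. Its upper limit lay 887 kb beyond the Lpp start. The limits of the E domain in primary B cells and the L domain in CH12 cells differed by 100 kb on the lower side and by 80 kb on the upper side, both less than the 300 kb over which RT had been smoothed.

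All 4 genes were therefore L in CH12 cells and E in primary B cells. Over the annotation 0.595% of gene starts had that pair of states, and 18.8% were earlier in primary B cells than in CH12 cells by any step. As these states chose the genes, nothing is read from the difference. Sst was the member closest to a limit of the early domain, at 70.9 kb. The genes nearest outside were M in CH12 cells, namely Rtp4 below, which was E in primary B cells, and Tprg above, which was M.

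In the map named for MEFs the 4 starts were E, as in primary B cells, a state shared by 58.6% of all gene starts. Their E domain was shorter, 820 kb from 23800001 to 24620000. Its lower limit lay 20 kb from that in primary B cells. Inside Lpp it gave way to a stretch of M from 24620001 to 24820000, 227 to 427 kb from the Lpp start, before a second E domain that ended at 25560000, 280 kb beyond the upper limit in primary B cells. As a result 66.6% of the Lpp body was E and 33.4% M in this map, and 3 of the 13 exons of its longest transcript lay in the M stretch. Of the 3 annotated Lpp transcripts, those starting at 24393436 and 24448177 began in E, and the shortest, starting at 24721941, began in M. All 3 began in L in CH12 cells and in E in primary B cells.

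**Figure D1:**
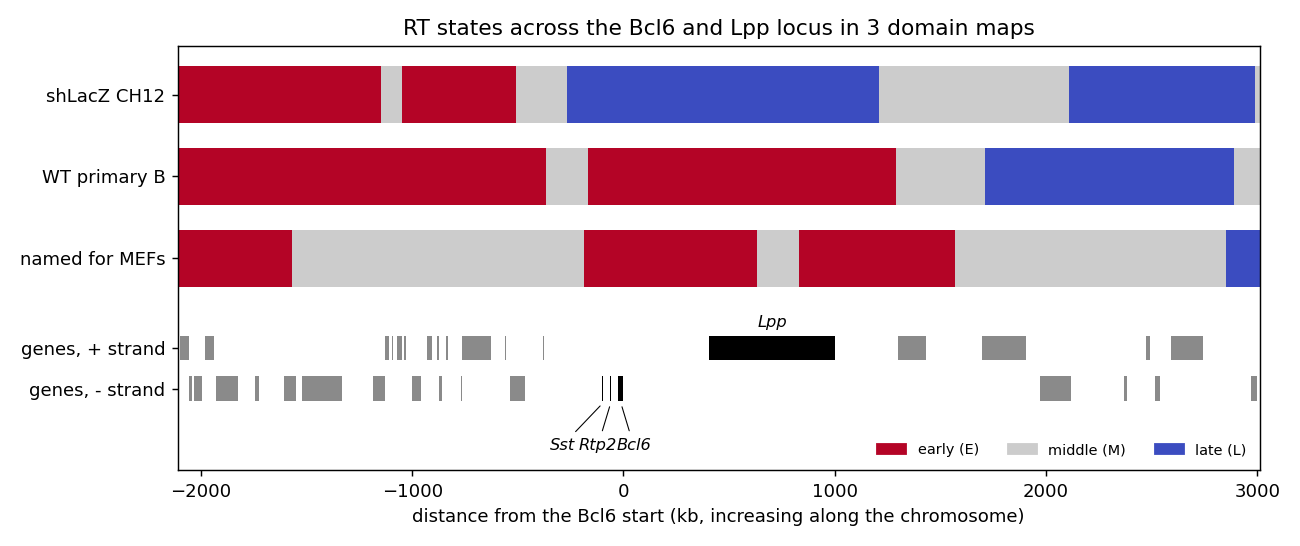
RT states (colour) in the 3 maps against distance from the Bcl6 start in kb, with the 36 protein-coding genes of the window below, by strand, and the 4 named genes in black; each band is 1 map without replicates. The block holding Sst, Rtp2, Bcl6 and Lpp was L over 1480 kb in CH12 cells and E over 1460 kb in primary B cells, and the map named for MEFs broke it with 200 kb of M inside Lpp.

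Lpp introns also held the small RNA genes U7, Mir28 and SNORA17, all L in CH12 cells, E in primary B cells and E in the map named for MEFs. A lincRNA, 1110054M08Rik, overlapped the first exon of Lpp on the opposite strand and had the same states. Mir28 lay at 24827941 to 24828026 on the plus strand, 435 kb from the Lpp start and just past the end of the M stretch. Its mature products are shown because the microRNA has a regulatory sequence of its own within the domain. They are taken from RefSeq (assembly GRCm38.p6), were located by exact match in the mm9 sequence, and have the seed, bases 2 to 8, in capitals.
mmu-miR-28a-5p: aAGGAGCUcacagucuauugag
mmu-miR-28a-3p: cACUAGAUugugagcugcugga
The 5p product matched 24827954 to 24827975 and the 3p product 24827994 to 24828015. Both are 22 bases long, and their seeds differ.

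Over the whole window, 256 bins from 21880001 to 27000000, most of the bins that differed between the B cell maps lay in the locus itself. In CH12 cells 75 bins (29.3%) were E, 63 (24.6%) M and 118 (46.1%) L. In primary B cells 160 (62.5%) were E, 37 (14.5%) M and 59 (23.0%) L. Over the genome the counts of E, M and L bins were 29985, 36202 and 65770 in CH12 cells, of 131957. In primary B cells they were 36885, 41824 and 50226, of 128935. State was earlier in primary B cells in 95 bins (37.1%), later in 20 (7.81%) and the same in 141 (55.1%), against 20.3% earlier and 3.62% later genome-wide. Of the 95 earlier bins, 69 went from L to E, 16 from M to E and 10 from L to M. All 69 formed the single stretch that held the 4 genes, so the excess is set by the choice of locus. Without that stretch 26 of the other 187 bins (13.9%) were earlier and 20 (10.7%) later, against the 20.3% and 3.62% genome-wide. The 75 bins E in CH12 cells were all among these 187 and could not be earlier, so the earlier shares are not directly comparable. The 20 later bins also formed 1 stretch, from 25700001 to 26100000, M in CH12 cells and L in primary B cells, in which 0 protein-coding genes started. Neighbouring bins share reads through smoothing and are not independent.

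The map named for MEFs was E in 105 bins (41.0%), M in 143 (55.9%) and L in 8 (3.12%). Over the genome it was E in 40565, M in 51036 and L in 40356 of 131957 bins. It shared the state of primary B cells in 108 bins (42.2%) and that of CH12 cells in 78 (30.5%). Of the 108, 59 lay in the L to E stretch, where this map was L in 0 bins and so could not match CH12 cells. The order of these shares is thus partly set by the choice of locus, and nothing is read from it. Only 41 bins (16.0%) had the same state in all 3 maps, against 55.0% over all bins. That share depended on the window, which is centred on a stretch chosen for differing between the maps: it was 7.69% with 1 Mb on either side, 20.8% with 3 Mb, and 21.9% without the L to E stretch. The 3 maps were alike at the lower end of the window, where 540 kb with 6 gene starts were E in each.

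Of the 24 genes below the locus, 18 were E in both B cell maps and the other 6 were M in CH12 cells and E in primary B cells. In all, 36 protein-coding genes started in the window, 18 of them E in CH12 cells and 28 in primary B cells, the 4 chosen genes included. Over the annotation these shares were 50.6% and 58.0%. In the window 6 genes were E in all 3 maps, among them Senp2, a SUMO protease, and Igf2bp2, an RNA-binding protein. A further 12 were E in both B cell maps and M in the map named for MEFs, including Eif4a2, a translation initiation helicase, Rfc4, a subunit of the clamp loader, Adipoq, which encodes adiponectin, and St6gal1, a sialyltransferase that makes the CD22 ligand on B cells. The 6 that were M in CH12 cells were Tbccd1, Dnajb11, Ahsg, Fetub, Masp1 and Rtp4. The pattern of L, E and E in the 3 maps belonged to Sst, Rtp2, Bcl6 and Lpp and to 0 other genes of the window.

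Genes above the locus differed from these. Tprg was M in both B cell maps and E in the map named for MEFs, and Trp63, which encodes the p63 transcription factor of epithelia, was M in all 3. Leprel1, Cldn1, Cldn16, Tmem207 and Il1rap were L in both B cell maps, Cldn1 and Cldn16 being claudins of tight junctions and Il1rap a subunit of the interleukin-1 receptor. Altogether 10 of the 36 genes (27.8%) were earlier in primary B cells, 26 had the same state and 0 were later, against 18.8% earlier and 2.75% later over the annotation. The 10 included the 4 genes that defined the window, so the share is partly set by their choice. Among the other 32 genes, 6 (18.8%) were earlier. Of these 32, 18 were E in CH12 cells and could not be earlier, so their share is not directly comparable with that over the annotation. With 1 Mb on either side the share was 8 of 19 genes (42.1%).

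**Figure D2:**
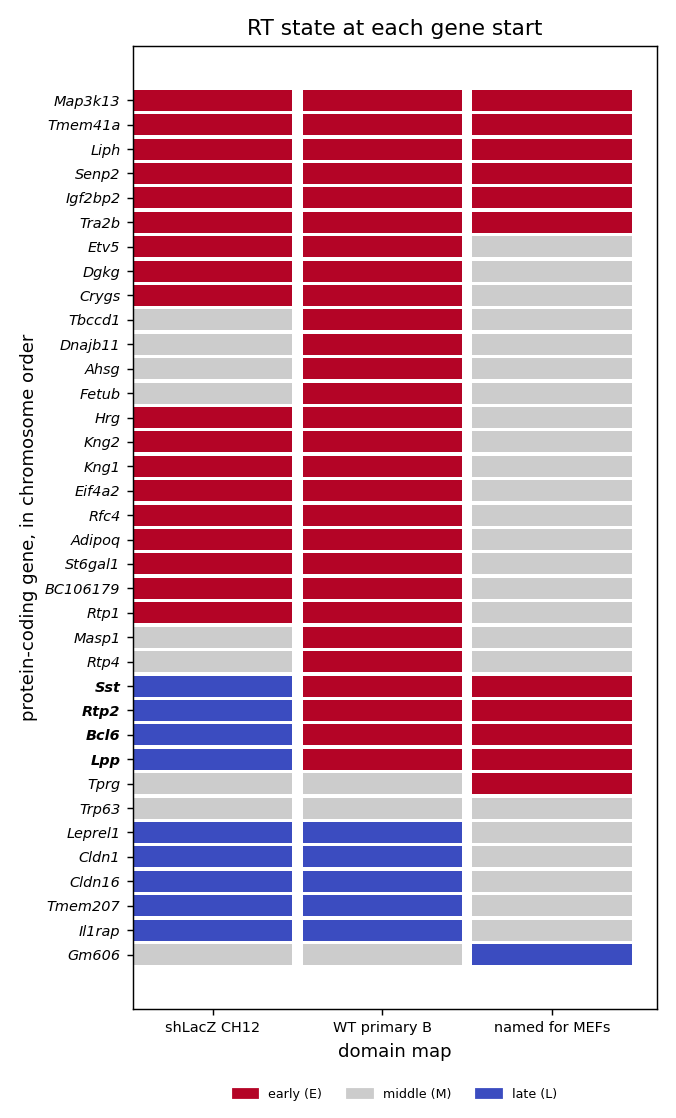
RT state (colour) at the start of each of the 36 protein-coding genes of the window, in chromosome order from top to bottom, in the 3 maps, with the 4 named genes in bold. The 4 named genes were L in CH12 cells and E in the other maps, the 18 genes E in CH12 cells were E in primary B cells too, and 5 genes above Trp63 on the chromosome were L in both B cell maps.

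The stretch that was L in CH12 cells and E in primary B cells ran from 23820001 to 25200000, 1380 kb in 69 bins. That pair of states was held by 0.643% of all bins. It was the longest of 75 such runs in the genome, and the other 74 had a median length of 160 kb and ranged from 20 to 880 kb. The run of 880 kb, on chromosome 7, held Gvin1 and olfactory receptor genes. Next were 620 kb on chromosome 1 with Obfc2a, 600 kb on chromosome 3 with Pag1 and genes of fatty acid binding proteins such as Fabp4, and 580 kb on chromosome 2 with Rag1 and Rag2, which encode the V(D)J recombinase. Of 398 L domains of at least 1000 kb in CH12 cells, the one around Bcl6 had the highest share of E bins in primary B cells, 69 of 74 (93.2%), the next highest share being 61.1% and the median 0. These values belong to the contrast that chose the genes and were not tested.

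The run was gene-poor and had a middling base composition among runs of its kind. It held 2.90 protein-coding gene starts per Mb, and 19 of the 21 other runs of at least 300 kb held more, with a median of 5.88. Protein-coding genes covered 45.6% of it, against a median of 39.1% in those 21 runs, most of it through Lpp. Its GC content was 42.1%, near the median of 41.5% in the 21 runs, and its CpG ratio was 0.186, with a median of 0.195 in them. The numbers describe the runs, since no replicate maps exist against which to set them.

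The states of the map named for MEFs were also known when the locus was chosen and are given as a description. That map was E in 59 of the 69 bins (85.5%) and M in the other 10 (14.5%). In the other 74 runs together, 200 of 760 bins (26.3%) were E, 56.8% M and 16.8% L. Among the 21 other runs of at least 300 kb, 2 had a higher share of E than the Bcl6 and Lpp run, and the median share was 0. Among all 74 other runs, shorter ones included, 22 had a higher share and the median was also 0. Over all bins that were L in CH12 cells 5.87% were E in that map, and over all bins 31.4% were.

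**Figure D3:**
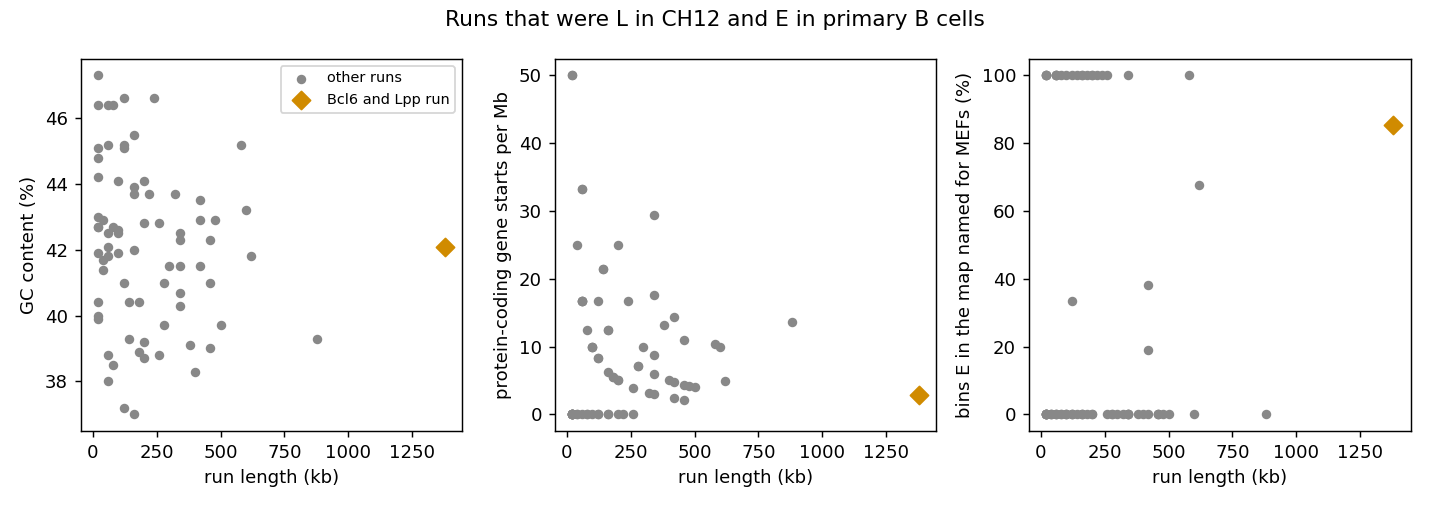
GC content (left), protein-coding gene starts per Mb (centre) and percent of bins E in the map named for MEFs (right) against length in kb for the 75 runs that were L in CH12 cells and E in primary B cells, 1 point a run. The Bcl6 and Lpp run (diamond) was the longest at 1380 kb, with a GC content of 42.1%, 2.90 starts per Mb and 85.5% of its bins E.

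By sequence the block was intermediate. The median GC content of its 69 bins was 41.8%, with quartiles of 40.5 and 43.9%. Bins L in CH12 cells had a median of 39.1% over the genome, and bins E in primary B cells 45.0%. Over the bins of all L to E runs the median was 41.7%, with quartiles of 39.7 and 43.4%. An intermediate GC content was thus not particular to this block. As an L domain in CH12 cells its GC content of 42.1% lay above the median domain (40.3%), with 198 of 750 domains higher. As an E domain in primary B cells, also at 42.1%, it lay below the median domain (44.0%), with 505 of 660 higher. Its 2.74 gene starts per Mb in that E domain compared with a median of 12.5, and 630 of the 660 E domains had a higher density. In CH12 cells the L domain held 2.70 starts per Mb, close to the median of 2.56.

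The block was not uniform along its length. The lower 800 kb, which held all 4 gene starts and were E in the map named for MEFs, had a GC content of 43.2%. The 200 kb that were M in that map had 40.2%, and the 380 kb above them, again E there, 40.7%. The bin with the Bcl6 start had both the highest GC content of the 69, 46.7%, and the highest CpG ratio, 0.440. By CpG ratio the bins with the Lpp, Sst and Rtp2 starts ranked 3, 4 and 9, at 0.272, 0.244 and 0.212. The lowest GC content, 37.3%, was in a bin centred 1121 kb above the Bcl6 start, and the lowest CpG ratio, 0.110, in a bin centred at -119 kb. Over 100 kb, GC content did not step the same way at the limits of the run. It was 42.6% inside the lower limit and 41.2% outside, but 39.0% inside the upper limit and 41.4% outside. Over 500 kb it was slightly higher inside at both, 43.4 against 42.9% at the lower limit and 40.6 against 40.3% at the upper. The opposite step thus held over 100 kb, which is finer than the 300 kb smoothing span, and not over 500 kb. Distances between these were not summarised.

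**Figure D4:**
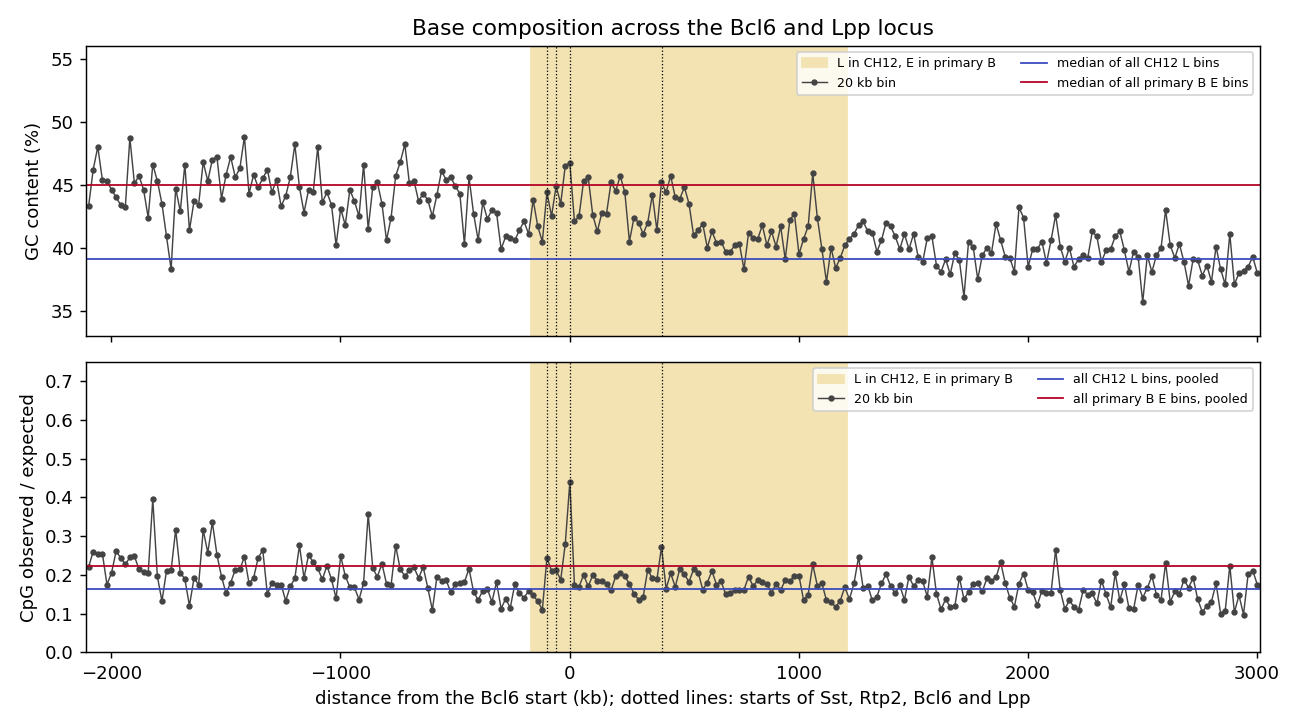
GC content in percent (top) and the observed over expected CpG ratio (bottom) of each 20 kb bin against distance from the Bcl6 start in kb, with the 1380 kb run shaded, gene starts as dotted lines, and values for all L bins of CH12 cells and all E bins of primary B cells as horizontal lines (medians for GC, pooled values for CpG). The Bcl6 start bin, at 46.7% GC and a CpG ratio of 0.440, was the highest of the run on both measures, and GC content was lower on its upper side.

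Few genes had the states of Bcl6 in all 3 maps. Over the genome 41 of 22350 protein-coding genes (0.183%) were L in CH12 cells and E in the other maps, and they lay in 18 runs. The 8 outside the locus that lay farthest inside their runs were Commd9 (286 kb from the nearer limit), Prr5l (283 kb), Gbp5 (160 kb), Obfc2a (155 kb), Slc16a12 (142 kb), Gbp7 (127 kb), Gbp3 (97.0 kb) and Plekha1 (90.7 kb). Bcl6 was 169 kb from the nearer limit of its run, and Lpp, at 573 kb, was deeper than any of these 8. Gbp3, Gbp5 and Gbp7 are neighbouring interferon-induced GTPases on chromosome 3, and Commd9 and Prr5l, a regulator of the mTORC2 kinase, share the run with Rag1 and Rag2, so these genes are not independent of one another.

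Genes that work with BCL6 protein were listed for comparison, and 0 of them were L in CH12 cells and E in primary B cells, a pair so rare over the annotation (0.595% of gene starts) that nothing is read from its absence. Of 9 corepressors listed, 0 were earlier or later in primary B cells, 7 were E in both maps, among them Bcor and Ncor1, and Hdac2 and Ctbp2 were M in both. Of 18 genes known to be repressed by BCL6, 2 were earlier in primary B cells, among them Bcl2, an inhibitor of apoptosis, which was M in CH12 cells and E in primary B cells. In this list 0 genes were later, and the number E was 14 in CH12 cells and 16 in primary B cells. Prdm1, the plasma cell regulator that BCL6 represses, Irf4 and Trp53 were E in both. Of 13 regulators of Bcl6 or its protein, Mef2c and Foxo1 were M in CH12 cells and E in primary B cells and the other 11 were E in both, including Irf8, Pax5, Stat3 and Fbxo11, a ubiquitin ligase subunit that targets BCL6. At its midpoint, rather than its start, Mef2c was M in both maps. Irf4 counted both as a repressed gene and as a regulator. Over the annotation 50.6% of gene starts were E in CH12 cells, 58.0% were E in primary B cells and 18.8% were earlier in primary B cells. A gene E in CH12 cells cannot be earlier in primary B cells, here or in the lists of relatives below. The lists above held larger shares of such genes than the annotation, so their counts of earlier genes are not directly comparable with the 18.8%.

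Relatives of the 4 genes elsewhere in the genome varied in state, and their counts stand beside the same shares over the annotation, 50.6% E in CH12 cells, 58.0% E in primary B cells and 18.8% earlier. Among 15 genes of the BTB zinc finger family other than Bcl6, 12 were E in both maps, including Bcl6b, the closest relative of Bcl6, and Zbtb20 alone was earlier, L in CH12 cells and M in primary B cells at its start but E in both at its midpoint. In the zyxin family, 3 of 7 genes were earlier in primary B cells, or 2 of 6 without Lpp, which was chosen for being so. These were Lpp itself, Zyx, from L to M, and Limd1, from M to E, while Trip6, Jub and Fblim1 were E in both. Of 7 genes of the somatostatin system, Sst, chosen for it, was earlier, Sstr4, a somatostatin receptor, was later (E in CH12 cells and M in primary B cells), Sstr1 was L in both, and Cort, Sstr2, Sstr3 and Sstr5 were E in both. Of the 4 receptor transporter genes, Rtp2, chosen for it, and Rtp4 were earlier, and Rtp1 and Rtp3 were E in both B cell maps. Rtp1, Rtp4 and Rtp2 lay in this order along the same chromosome and were E, M and L in CH12 cells.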

How the data were processed

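Per the study's methods, the authors trimmed Repli-seq reads (Trim Galore 0.6.5 in the submitters' processing notes), aligned them to mm9 with BWA 0.7.17, and merged replicates. Early over late read density, on a log2 scale in 20 kb windows, was smoothed by loess over 300 kb and segmented by a hidden Markov model. The deposited files hold each domain's limits and a state number, which is a label and not a measurement of RT; smoothing blurs the limits, and the cut between states can differ between maps. State numbers 2, 1 and 0 were read as E, M and L in the B cell maps, and 0, 2 and 1 in the map named for MEFs. This order was checked: E had the highest and L the lowest GC content and gene density in each map, and E and L touched in 0 places.

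Groups followed the sample titles, and 8 of the 36 libraries stood behind the B cell maps; the other 5 groups were not analysed here. Domains were placed on 20 kb bins, and genes (GENCODE M1, on the NCBIM37 reference, the same assembly as mm9) were given the state at their start. All 20 chromosomes ended at the reference length in each map. The CpG ratio is observed CG over that expected from C and G. Python 3.11.15 with numpy 2.4.6 was used, and the code was tested on a simulated map (6 of 6 checks passed over 5000 bins). Jub and Sfpi1 are older symbols for Ajuba and Spi1, matched through RefSeq synonyms. The members and the 7 gene lists were chosen with earlier results of these data known. By the naming rule, genes sharing the states of Bcl6 in all 3 maps were ranked by distance to the nearer limit of their run, and the 8 farthest inside were named, leaving out chromosomes 16 and 18 and clone-like or olfactory receptor names. Alternatives placed genes by midpoint, body or transcript starts, took all gene types or autosomes, moved the flank to 1 or 3 Mb, left out domains under 100 kb, joined runs across 40 kb, trimmed the run and, added after seeing the data, left the run out of the window. No test was made, since each condition had 1 map.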

Additional observations from a re-analysis of the deposited data

How the results depend on the processing

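Of 51 values recomputed for 26 results, 42 kept within the limits set for no change, 9 moved and 0 reversed. The limits for shares came from a 95% interval, which is wide for few genes and narrow for many. The window gene share thus counted as kept at 42.1% against 27.8%, while the background counted as moved at 20.2% against 18.8%. Neighbouring bins and genes are also not independent, so the count of values kept does not measure how stable the shares were. The 4 genes were L in CH12 cells and E in primary B cells by start, midpoint, body and all transcript starts, and the run stayed at 1380 kb and rank 1 with runs joined across 40 kb or domains under 100 kb left out. The share of window bins earlier in primary B cells was 37.1% with 2 Mb on either side, 56.4% with 1 Mb and 31.2% with 3 Mb, and the share the same in all 3 maps went from 16.0 to 7.69% with 1 Mb, as narrower windows hold less flanking sequence. Without the L to E run, an alternative chosen after seeing the data, these shares were 13.9% and 21.9%. Of window genes, 27.8% were earlier with 2 Mb on either side, 42.1% with 1 Mb and 18.8% without the run. With all annotated gene types the background went from 18.8 to 20.2% earlier and from 2.75 to 2.98% later. By midpoint the earlier regulators of Bcl6 went from 2 to 1 (Mef2c lost) and the earlier BTB zinc finger genes from 1 to 0 (Zbtb20 lost). Also by midpoint, 2 of 36 window genes, Trp63 and Leprel1, were later in primary B cells (5.56%) in place of 0. Without 100 kb at each end the run had 42.3% GC in place of 42.1%. The planned composition outside repeats was not run, because the reference carried 0 lower-case (masked) bases. No paired analysis was possible because each map pools its replicates. Read depth is unknown, and limits finer than the 300 kb smoothing span are uncertain.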
